A study of Mus musculus with 6 samples.

Results

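Serpins are a protein superfamily built on a common fold. Most members trap a serine or cysteine protease by offering it a bait loop, whose cleavage changes the shape of the serpin and locks the protease in an inactive complex. Some members have lost this activity and work as chaperones or signalling proteins. Clade A, E, F and G members are mostly secreted into plasma and matrix, whereas clade B members stay mainly inside the cell, where they guard against the proteases of granules and lysosomes. The results below cover 9 mouse serpins, listed with earlier results of these data known and matched by gene symbol to the platform annotation. Of these, 8 had a probe set with that single symbol, among 40 serpin genes and 18193 genes measured in all, and Serpine2 had no probe set named in the annotation used here and was not analysed. The 8 genes had 12 probe sets, and 4 genes had more than 1. Each gene is represented by the probe set with the highest mean over the arrays.

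Ventricular RNA was measured on 6 short-oligonucleotide arrays from mice aged 8 weeks. The caAkt group (3 arrays) carried a transgene for an activated form of the kinase Akt, active throughout life in the heart only, a model in which heart failure develops. The wild-type group (3 arrays) carried none. The labels name neither the promoter of the transgene nor the sex or strain. Whether the arrays of a group were hybridised with RNA of different hearts is not stated either, and p-values therefore reflect only how far these samples vary, possibly for technical reasons.

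The deposited values are on a log2 scale, with medians of 6.77 to 6.80 per array and a span of 3.17 to 15.45. Correlations over all probe sets were 0.995 to 0.997 within a genotype and 0.983 to 0.985 between genotypes. The brightest Akt1 probe set stood at 15.16, 15.10 and 15.08 in caAkt arrays, against 9.79, 9.79 and 10.18 in wild-type arrays, which fits the labels. Defining cardiomyocyte genes were near the top of the scale in both genotypes, with Myl2 at 15.25 ± 0.03 in caAkt and 15.38 ± 0.06 in wild-type arrays (SD, n = 3 each). As a guide to background, Uty, Kdm5d and Eif2s3y, which are Y-linked, reached at most 4.57 on arrays where Xist stood at 11.36 to 11.47.

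Of the 8 serpins, 6 rose in caAkt ventricles and 0 fell (limma, adjusted p under 0.05), where 16.1% of all genes were called higher, 12.4% lower and 28.5% either way. At an unadjusted p under 0.05 the counts were also 6 and 0. The median log2 fold change was 1.03, beside -0.04 over all genes. Serpina3n, Serpinf1, Serping1 and Serpinb1a, 4 of the 8, were at least 2-fold higher, as were 2.48% of all genes. All 3 caAkt values lay above all 3 wild-type values for 6 of the 8, as for 21.4% of all genes, and all below for 0 of the 8 (21.1% of all genes). Serpinb6b and Serpinb8 were not called. The genes were listed with earlier results of these data known, so these counts describe the list and do not test it. In whole ventricle, a change in the number of cells of a type and a change in RNA per cell cannot be told apart.

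**Figure D1:**
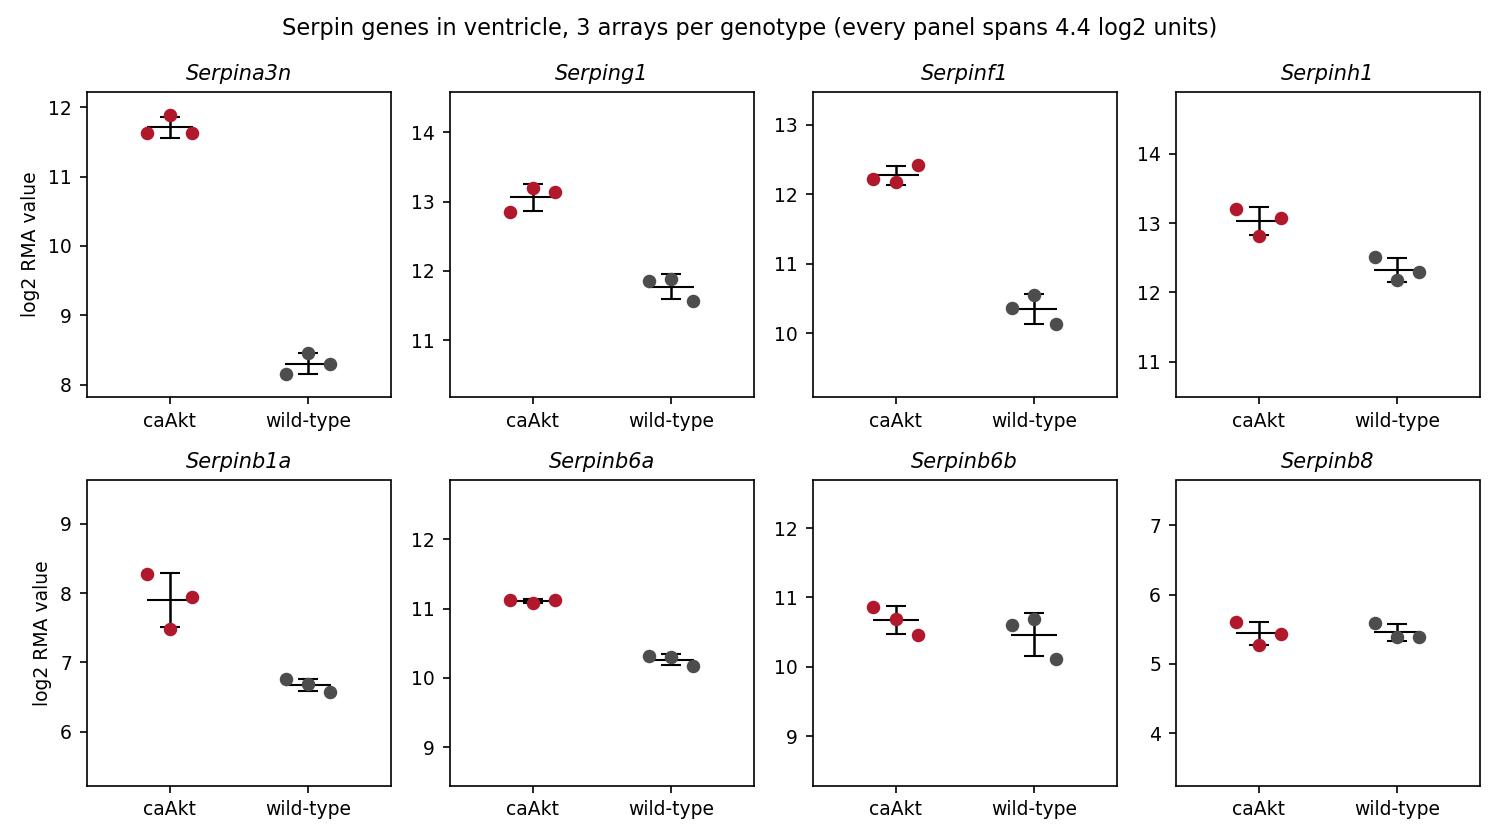
Log2 RMA values (vertical axis) of the 8 described serpins in caAkt and wild-type ventricles; points are arrays, horizontal marks are means and bars are SDs (n = 3 per group), and every panel spans the same number of log2 units. The groups are apart for Serpina3n, Serping1, Serpinf1, Serpinh1, Serpinb1a and Serpinb6a, and overlap for Serpinb6b and Serpinb8.

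Serpina3n encodes a secreted inhibitor related to human α1-antichymotrypsin. It belongs to the acute-phase proteins, and in mouse it is known to inhibit granzyme B and leukocyte proteases. Its values were 11.63, 11.89 and 11.63 in caAkt arrays, against 8.15, 8.46 and 8.29 in wild-type arrays. Every caAkt array was thus above every wild-type array, with a gap of 3.17 between the groups. On the log2 scale the change was 3.41 ± 0.10 (SE, adjusted p = 2.67e-07), or 10.7-fold with a 95% interval of 9.06 to 12.5. It was number 10 among the 18193 genes ordered from the highest log2 fold change down.

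The 250 bases before the annotated start of Serpina3n are shown because they belong to the member with the largest change (RefSeq, GRCm38.p6, chr12:104406458-104406707, plus strand). Capitals mark the only match to the palindromic glucocorticoid response element, on either strand, which begins 78 bases before the start.
Serpina3n: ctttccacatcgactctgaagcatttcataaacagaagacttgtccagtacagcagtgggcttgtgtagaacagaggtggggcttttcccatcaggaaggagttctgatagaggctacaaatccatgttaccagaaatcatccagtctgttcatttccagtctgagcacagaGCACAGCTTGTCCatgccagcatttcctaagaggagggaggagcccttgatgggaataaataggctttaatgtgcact
Of 32851 promoter windows of this length, 0.387% held such a match. It was picked out after 11 motifs had been searched in 7 windows of 6 of the serpins, and the motifs were chosen with these promoters in view, so the match is a description. The STAT dimer element TTCNNNGAA and the C/EBP element TTGCNNAA, sequences bound by acute-phase factors, had no match in this window (7.02% and 9.56% of all windows held them).

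Serping1 encodes C1 inhibitor, the plasma serpin that inactivates C1r and C1s of the classical complement pathway, the MASP proteases of the lectin pathway, plasma kallikrein and activated factor XII. It stood at 12.84, 13.20 and 13.14 in caAkt arrays, against 11.86, 11.89 and 11.56 in wild-type arrays. The groups did not overlap, and the lowest caAkt array was 0.96 above the highest wild-type array. The log2 fold change was 1.29 ± 0.12 (SE, adjusted p = 5.62e-05), or 2.44-fold (95% interval 2.03 to 2.94).

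Serpinf1 encodes pigment epithelium-derived factor, a secreted serpin without protease inhibition that binds collagen and is known to restrain blood vessel growth. Its brighter probe set read 12.22, 12.17 and 12.43 in caAkt arrays, against 10.36, 10.55 and 10.13 in wild-type arrays. All caAkt values were higher, by at least 1.62. The resulting log2 fold change was 1.93 ± 0.11 (SE, adjusted p = 5.63e-06), or 3.80-fold (95% interval 3.17 to 4.55). The dimmer probe set read 11.44, 11.42 and 11.55 in caAkt arrays, against 9.81, 9.87 and 9.65 in wild-type arrays. It moved the same way, with a log2 fold change of 1.69 ± 0.08 (limma, adjusted p = 4.98e-06 over all probe sets).

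Serpinh1 encodes Hsp47, a chaperone of the endoplasmic reticulum that binds procollagen and, like Serpinf1, has no protease inhibition. Its values were 13.20, 12.81 and 13.07 in caAkt arrays, against 12.52, 12.18 and 12.29 in wild-type arrays. The groups were apart by 0.29, the narrowest gap among the 6 of the 8 serpins that rose. The log2 fold change was 0.70 ± 0.12 (SE, adjusted p = 0.00202), or 1.63-fold (95% interval 1.35 to 1.96). A second probe set had values of 12.85, 12.64 and 12.88 in caAkt arrays, against 12.28, 12.06 and 12.16 in wild-type arrays, with a log2 fold change of 0.62 ± 0.09 (adjusted p = 0.00157 among all probe sets). The name of the brighter probe set ends in _a_at, which marks probes shared between transcripts of the same gene. That of the second ends in _x_at, which marks probes that may also bind other sequences. Neither is a plain probe set.

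Of the clade B genes, Serpinb1a and Serpinb6a rose, and Serpinb6b and Serpinb8 were not called. Serpinb1a, the mouse counterpart of the human inhibitor of neutrophil elastase, cathepsin G and proteinase 3, had values of 8.27, 7.49 and 7.94 in caAkt arrays, against 6.76, 6.69 and 6.57 in wild-type arrays. The caAkt arrays were all higher but varied more, with an SD of 0.39 in caAkt and 0.09 in wild-type arrays (n = 3 each). Between genotypes the log2 fold change was 1.22 ± 0.17 (SE, adjusted p = 0.000598), or 2.34-fold (95% interval 1.80 to 3.04). A dimmer probe set read 5.85, 5.27 and 4.90 in caAkt arrays, against 4.65, 4.68 and 4.81 in wild-type arrays. The groups there were apart by only 0.09, and the log2 fold change of 0.63 ± 0.20 was not called (adjusted p = 0.0585 among all probe sets). The caAkt array with the highest value was the same for both probe sets, replicate 1.

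Serpinb6a, the mouse counterpart of human SERPINB6, which inhibits cathepsin G, had values of 11.12, 11.07 and 11.12 in caAkt arrays, against 10.31, 10.30 and 10.17 in wild-type arrays. The SD of the caAkt arrays, 0.03, was the smallest among the 8 serpins in that genotype. Serpinb6a rose by 0.84 ± 0.07 on the log2 scale (SE, adjusted p = 3.22e-05), or 1.80-fold (95% interval 1.61 to 2.00). Its paralog Serpinb6b, reported in mouse to inhibit granzyme A, stood at 10.86, 10.69 and 10.46 in caAkt arrays, against 10.60, 10.69 and 10.11 in wild-type arrays. These groups overlapped, and the log2 fold change of 0.21 ± 0.16 was not called (adjusted p = 0.352, 95% interval -0.14 to 0.56). The interval leaves room for a fold up to 1.48, so the values do not show that Serpinb6b was the same in both genotypes. Without wild-type replicate 3, its lowest array, the value was 0.03. Probes of such close paralogs can bind each other's transcripts, and how far that happened here was not tested.

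Serpinb8, whose human counterpart inhibits the proprotein convertase furin, was dim. It had values of 5.61, 5.28 and 5.43 in caAkt arrays, against 5.59, 5.39 and 5.39 in wild-type arrays, less than 1.5 above the highest Y-linked signal of 4.57. Its mean was no lower than that of 17.7% of genes. The log2 fold change was -0.01 ± 0.10 (adjusted p = 0.931, 95% interval -0.24 to 0.21). Its second probe set gave 0.16 ± 0.11 (adjusted p = 0.377 among all probe sets).

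The promoters of the paralogs Serpinb6a and Serpinb6b are shown because the genes lie on chromosome 13 and Serpinb6a was called while Serpinb6b was not. Serpinb6a has 2 annotated starts, and the window with a motif match is given (RefSeq, GRCm38.p6, chr13:34002795-34003044, minus strand, beside chr13:32965011-32965260, plus strand, for Serpinb6b). Capitals mark the single match to the STAT dimer element TTCNNNGAA, which begins 77 bases before the start.
Serpinb6a: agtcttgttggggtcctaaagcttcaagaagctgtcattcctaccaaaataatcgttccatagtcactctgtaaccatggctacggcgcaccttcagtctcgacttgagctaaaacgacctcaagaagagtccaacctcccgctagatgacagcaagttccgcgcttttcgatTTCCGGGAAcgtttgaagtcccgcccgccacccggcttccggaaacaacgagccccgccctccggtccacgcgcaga
Serpinb6b: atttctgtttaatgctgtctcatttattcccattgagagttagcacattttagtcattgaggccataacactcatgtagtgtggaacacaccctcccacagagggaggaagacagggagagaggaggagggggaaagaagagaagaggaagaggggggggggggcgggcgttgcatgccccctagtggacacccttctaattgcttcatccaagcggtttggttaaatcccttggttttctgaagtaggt
The Serpinb6b window and the other Serpinb6a window held no match to this motif. The Serpinb6a window shown also held 2 matches to TTCNNGAA, the tail-to-tail heat shock element, found in 7.17% of all windows. The window of Serpinf1 held 3 CCAAT boxes (33.8% of windows hold at least 1), that of Serpinb8 held 1 match to the AP-1 element TGANTCA (6.75%), and those of Serpina3n, Serpinb8 and Serpinh1 held a loose NF-kB element (45.8%). All matches were counted on both strands.

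Differences in response between serpins were compared on the same arrays in 3 pairs. Serpinb6a minus Serpinb6b was 0.26, 0.38 and 0.66 in caAkt arrays, against -0.28, -0.39 and 0.06 in wild-type arrays, so Serpinb6a moved further by 0.63 ± 0.18 (SE of the difference of log2 fold changes). Serpinf1 moved further than Serpinh1 by 1.23 ± 0.21. In both pairs the genotypes did not overlap, and the two-sided exact permutation p was 0.1, the smallest that 3 against 3 arrays allow (0.15 after adjustment over the 3 pairs). Serpinb1a and Serpinb6a differed by 0.38 ± 0.21 with overlapping groups (exact permutation p = 0.2, adjusted 0.2), and by 0.08 with the mean of probe sets.

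**Figure D2:**
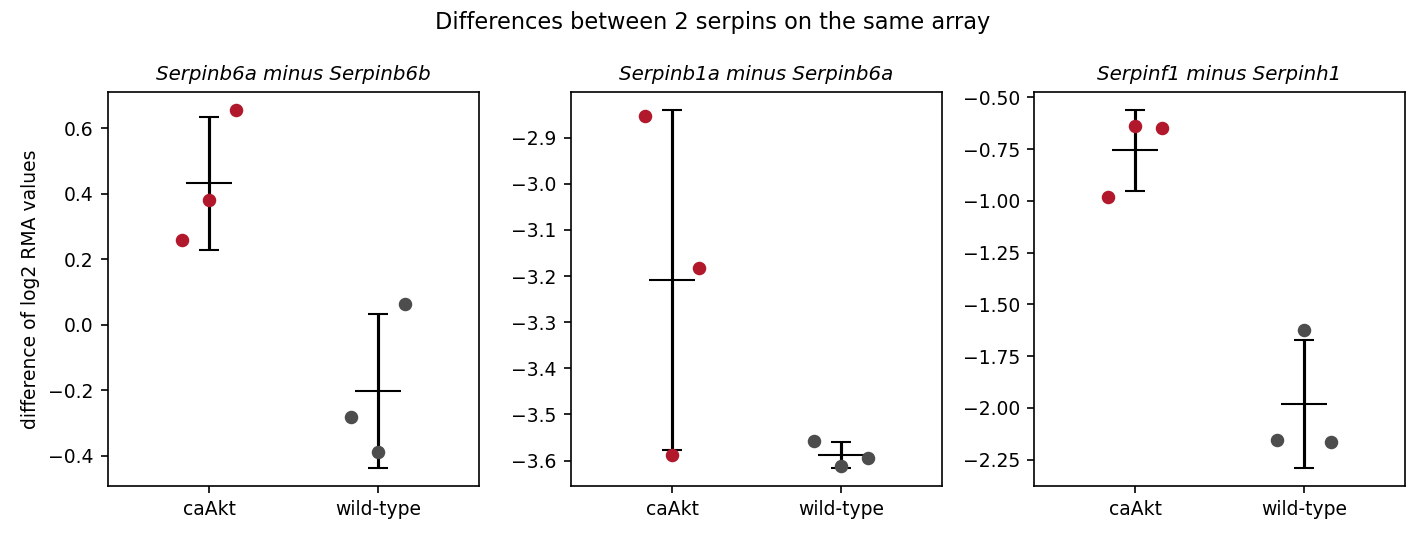
Difference of log2 RMA values between 2 serpins on each array (vertical axis), for caAkt and wild-type arrays; points are arrays, marks are means and bars are SDs (n = 3). The height of a panel's scale has no meaning by itself because probe sets differ in brightness; the caAkt arrays lie above the wild-type arrays for Serpinb6a minus Serpinb6b and for Serpinf1 minus Serpinh1, and overlap for Serpinb1a minus Serpinb6a.

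The arrays of a genotype were not in the same order for every serpin. Wild-type replicate 3 was the lowest wild-type array for 5 of the 8 (42.4% of all genes), and caAkt replicate 1 was the highest caAkt array for 5 of the 8 (35.4% of all genes). All 6 calls held without any single array, with log2 fold changes between 3.33 and 3.49 for Serpina3n, 1.82 and 2.03 for Serpinf1, 1.18 and 1.40 for Serping1, 1.04 and 1.43 for Serpinb1a, 0.80 and 0.87 for Serpinb6a, and 0.61 and 0.81 for Serpinh1.

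Of the other 32 measured serpins, 1 rose and 1 fell (16.1% and 12.4% of all genes), with a median log2 fold change of -0.09. Many were dim, and their mean level was 5.48 to 5.56 in caAkt and 5.58 to 5.64 in wild-type arrays. The 8 described serpins were brighter and were listed with earlier results of these data known. The contrast between the 8 and the 32 is therefore not a test. At an unadjusted p under 0.05, 1 was higher and 3 were lower. Serpinb9, an inhibitor of granzyme B, stood at 9.40, 9.43 and 9.44 in caAkt arrays, against 9.14, 9.12 and 8.99 in wild-type arrays (log2 fold change 0.34 ± 0.07, adjusted p = 0.00539). A dimmer probe set of it gave 0.06 ± 0.08 and was not called. Serpina1b, an α1-antitrypsin gene of the liver, read 7.47, 7.67 and 7.22 in caAkt arrays, against 8.01, 8.56 and 8.28 in wild-type arrays (log2 fold change -0.83 ± 0.15, adjusted p = 0.00284). Its probe sets are of the _x_at kind and the α1-antitrypsin genes are near-identical, so which copy was measured is uncertain.

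Of these other 32 serpins, the brightest that were not called were Serpini1, Serpinb6e and Serpinf2. Serpini1, or neuroserpin, an inhibitor of tissue plasminogen activator, was at -0.23 ± 0.09 (log2 fold change, adjusted p = 0.0815), and leaving out wild-type replicate 3 gave a call (-0.31, adjusted p = 0.0286). Serpinf2, the plasmin inhibitor α2-antiplasmin and the neighbour of Serpinf1 on chromosome 11, had -0.17 ± 0.08 (adjusted p = 0.149). Serpinb6e, a paralog of Serpinb6a, had -0.01 ± 0.11 (adjusted p = 0.959). Without caAkt replicate 3 the count of other serpins that fell was 3, and without wild-type replicate 3 it was 2. For 9 of the 32, all 6 arrays were at or under the highest Y-linked signal.

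**Figure D3:**
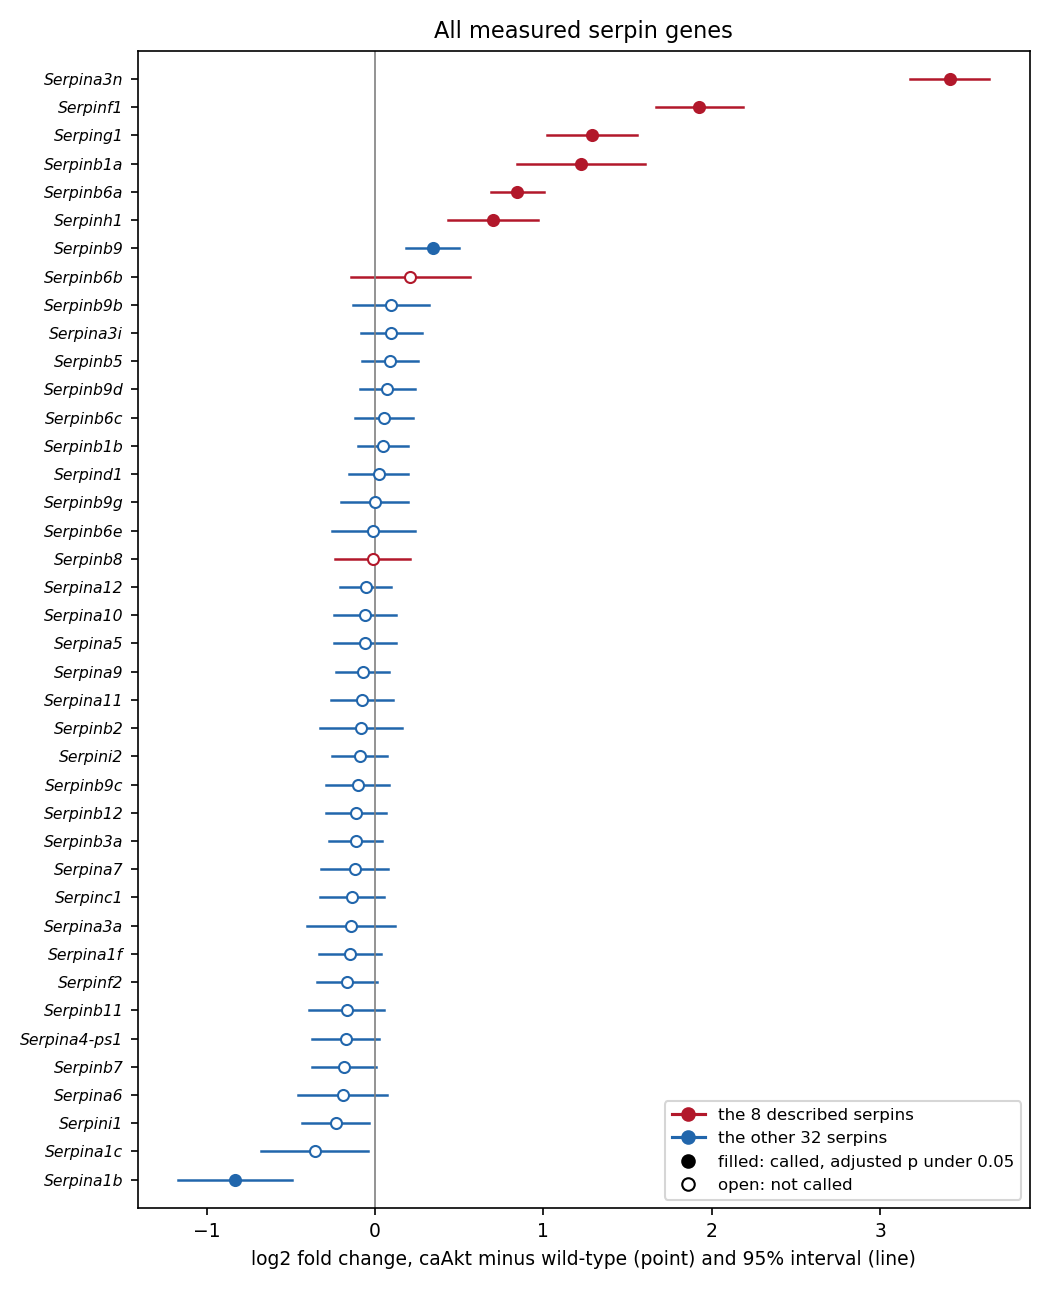
Log2 fold changes (caAkt minus wild-type, horizontal axis) of all 40 measured serpin genes, with 95% intervals from the fit; red marks the 8 described serpins, blue the other 32, and filled points were called at an adjusted p under 0.05. Serpina3n, Serpinf1, Serping1, Serpinb1a, Serpinb6a and Serpinh1 lie to the right of every other serpin, and Serpina1b is farthest to the left. The 8 were listed with earlier results of these data known, and many of the other 32 were dim.

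Serpin genes lie in clusters, but calls were counted here by whole chromosome (16.1% of all genes were called higher and 28.5% either way). Serpins on chromosomes 12 and 13 differed in their calls. In the RefSeq annotation, Serpina3n is 1 of 28 serpin genes or pseudogenes on chromosome 12, of which 13 were measured, and it was the only one of the 13 that rose. Its close relatives Serpina3a (-0.14 ± 0.11) and Serpina3i (0.10 ± 0.08) were not called, and their names lie outside the rule for named genes, being chosen after their values were seen. On chromosome 13, Serpinb1a, Serpinb6a and Serpinb9 rose among 11 measured. On chromosome 1, with Serpinb8, 0 of 8 were called, and 0 of 8 had an unadjusted p under 0.05. These 8 were all dim, with no value above 5.62 (Serpinb11, wild-type replicate 3). The lack of calls there does not show that they were unchanged. Serping1 and Serpinh1 are the only annotated serpins on chromosomes 2 and 7.

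Some of the proteases that Serping1 inhibits rose, and others were not called. Of 13 measured genes of the C1 complex, the MASP proteases and the contact system, 7 rose and 0 fell, also at an unadjusted p under 0.05, with a median log2 fold change of 0.60 (all genes -0.04). The C1q chains, which carry C1r and C1s, were among them: C1qa stood at 12.02, 11.91 and 11.79 in caAkt arrays, against 10.64, 10.60 and 10.59 in wild-type arrays (log2 fold change 1.30 ± 0.08, adjusted p = 5.43e-06). C1qb rose by 1.54 ± 0.09 and C1qc by 1.44 ± 0.10. The target protease C1s1 was at 9.94, 9.97 and 9.95 in caAkt arrays, against 8.95, 8.75 and 8.77 in wild-type arrays (1.13 ± 0.08, adjusted p = 1.00e-05). The contact system targets did not pass the test, with values of -0.04 for F12 and -0.03 for Klkb1, both chosen after their values were seen.

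Most listed clients and partners of the chaperone Serpinh1 were higher with it (16.1% of all genes were called higher and 12.4% lower). All 18 listed collagen chains rose, with a median log2 fold change of 1.21. They are a selection of the collagen genes, chosen with earlier results of these data known. Col1a1, the main chain of type I collagen, stood at 13.17, 13.05 and 13.18 in caAkt arrays, against 10.75, 10.88 and 10.83 in wild-type arrays (2.31 ± 0.07, adjusted p = 2.85e-07). Col8a1 rose by 2.49 ± 0.11, Col5a2 by 2.16 ± 0.10 and Col1a2 by 2.02 ± 0.08. Among 23 genes of collagen folding, modification and export, 20 rose and 1 fell, with a median of 0.58. The prolyl hydroxylases P3h2 (2.09 ± 0.10) and P4ha1 (1.16 ± 0.09), the lysyl hydroxylase Plod2 (1.22 ± 0.07) and the retrieval receptor Kdelr3 (0.98 ± 0.07) had the smallest p. The member that fell was P3h4 (-0.47, chosen after its value was seen). The log2 fold change of Serpinh1, 0.70, lay between the medians of these lists.

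Granule proteases hold known targets of Serpina3n, Serpinb1a and the Serpinb6 genes. Of 15 measured genes of neutrophil, lymphocyte and mast cell granules, 0 rose and 3 fell (limma, beside 16.1% and 12.4% of all genes). Their median log2 fold change was -0.15, and at an unadjusted p under 0.05 the counts were 0 and 5. The list also holds Mpo and Prf1, which do not encode proteases. The natural killer cell protease Gzmm had values of 6.89, 7.12 and 7.03 in caAkt arrays, against 8.31, 8.26 and 8.38 in wild-type arrays (-1.30 ± 0.08, adjusted p = 6.87e-06). The mast cell genes Tpsb2 (-0.27, adjusted p = 0.0330) and Cpa3 (-0.23, adjusted p = 0.0386) were lost in most fits that left out an array. Only 1 gene of the list fell without caAkt replicate 2 or without wild-type replicate 2. With all arrays, Tpsb2 was also lost with plain probe sets (-0.05, adjusted p = 0.778) and Cpa3 with the replicate block (adjusted p = 0.0679). Of 11 lysosomal cathepsins, 8 were higher and 0 lower (0 also at an unadjusted p under 0.05), with a median of 0.64. The macrophage cathepsin Ctss averaged 12.13 ± 0.16 in caAkt arrays and 9.78 ± 0.21 in wild-type arrays (SD, n = 3 each; limma log2 fold change 2.35 ± 0.12, adjusted p = 2.30e-06). Ctsz rose by 1.62 ± 0.09, the collagen-degrading Ctsk by 1.55 ± 0.09 and Ctsb by 0.77 ± 0.08.

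Genes of thrombin, plasmin and their receptors were mixed. Of 16 measured, 6 rose and 3 fell, with a median log2 fold change of 0.03. Procr, the endothelial protein C receptor, rose by 1.04 ± 0.08 and S100a10, a surface receptor for plasminogen, by 1.10 ± 0.10. Tfpi, the inhibitor of the tissue factor pathway, fell by 1.83 ± 0.13 on the log2 scale. Anxa2, the partner of S100a10, had 1.198 ± 0.086 at its brightest probe set and -0.14 at its plain probe set, and only 3 genes of the list rose when plain probe sets alone were used. Of 7 proprotein convertases, the group that holds the target of human SERPINB8, 2 rose and 1 fell. Furin itself was not called (0.12 ± 0.08, adjusted p = 0.289), Pcsk5 rose by 0.39 ± 0.07 at its brightest probe set, and Pcsk6 fell by 0.44 ± 0.10 on the log2 scale. The Pcsk5 call was lost with the mean of its probe sets (0.16, adjusted p = 0.0673) and with plain probe sets (0.06, adjusted p = 0.630). Mbtps1 (0.24, adjusted p = 0.0260) was lost without caAkt replicate 1 or 2 or without any wild-type array, which left 1 that rose, and 0 convertases rose with the mean of probe sets.

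Receptors that take up or answer to serpins also went both ways. Lrp1, which clears serpin-protease complexes from the cell surface, stood at 11.08, 11.46 and 11.35 in caAkt arrays, against 10.03, 10.26 and 10.13 in wild-type arrays (log2 fold change 1.15 ± 0.11, adjusted p = 6.23e-05). Of 6 measured clearance receptors 3 rose and 1 fell. The one that fell was Vldlr (-0.64 ± 0.15, adjusted p = 0.0108), which was not called without caAkt replicate 3, leaving 0 lower. The calls of Sorl1 (0.27, adjusted p = 0.0463) and Lrpap1 (0.21, adjusted p = 0.0495) were borderline. Among fits that left out an array, Sorl1 held only without caAkt replicate 3 and Lrpap1 only without wild-type replicate 1. With all arrays, both were lost with the mean of probe sets (0.10 and 0.16, limma adjusted p = 0.392 and 0.0702). Only 1 receptor rose without caAkt replicate 1 or 2 or wild-type replicate 2 or 3. Among 5 proteins known to bind Serpinf1, 2 rose and 2 fell. Plxdc2 rose by 0.73 ± 0.08 (0.41 with the mean of its probe sets) and Lrp6 by 0.36 ± 0.07 (0.25 and not called with the mean of its probe sets), while Plxdc1 fell by 0.32 ± 0.07 on the log2 scale. Pnpla2, a triglyceride lipase, had -0.38 ± 0.08 (adjusted p = 0.00470) but 0.18 at its plain probe set.

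Of 20 measured genes of IL-6 family signalling and the acute phase, the setting in which Serpina3n is best known, 10 rose and 1 fell, with a median log2 fold change of 0.29. Il6 stood at 6.52, 6.58 and 6.36 in caAkt arrays, against 3.96, 3.76 and 4.24 in wild-type arrays (limma, adjusted p = 1.79e-06). All wild-type values lay under the highest Y-linked signal of 4.57, so no size is given for its rise. The receptor Osmr rose by 1.09 ± 0.09, the feedback inhibitor Socs3 by 1.31 ± 0.17 and the transcription factor Cebpd by 1.26 ± 0.17 (0.62 with the mean of its probe sets). Socs3 varied among caAkt arrays (9.08, 9.75 and 9.04), with replicate 2 the highest, as it was for Serpina3n and for 34.4% of all genes. A link between Socs3 and Serpina3n was not tested. The member that fell was the receptor Lifr (-0.79, chosen after its value was seen), and 2 fell without caAkt replicate 2.

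**Figure D4:**
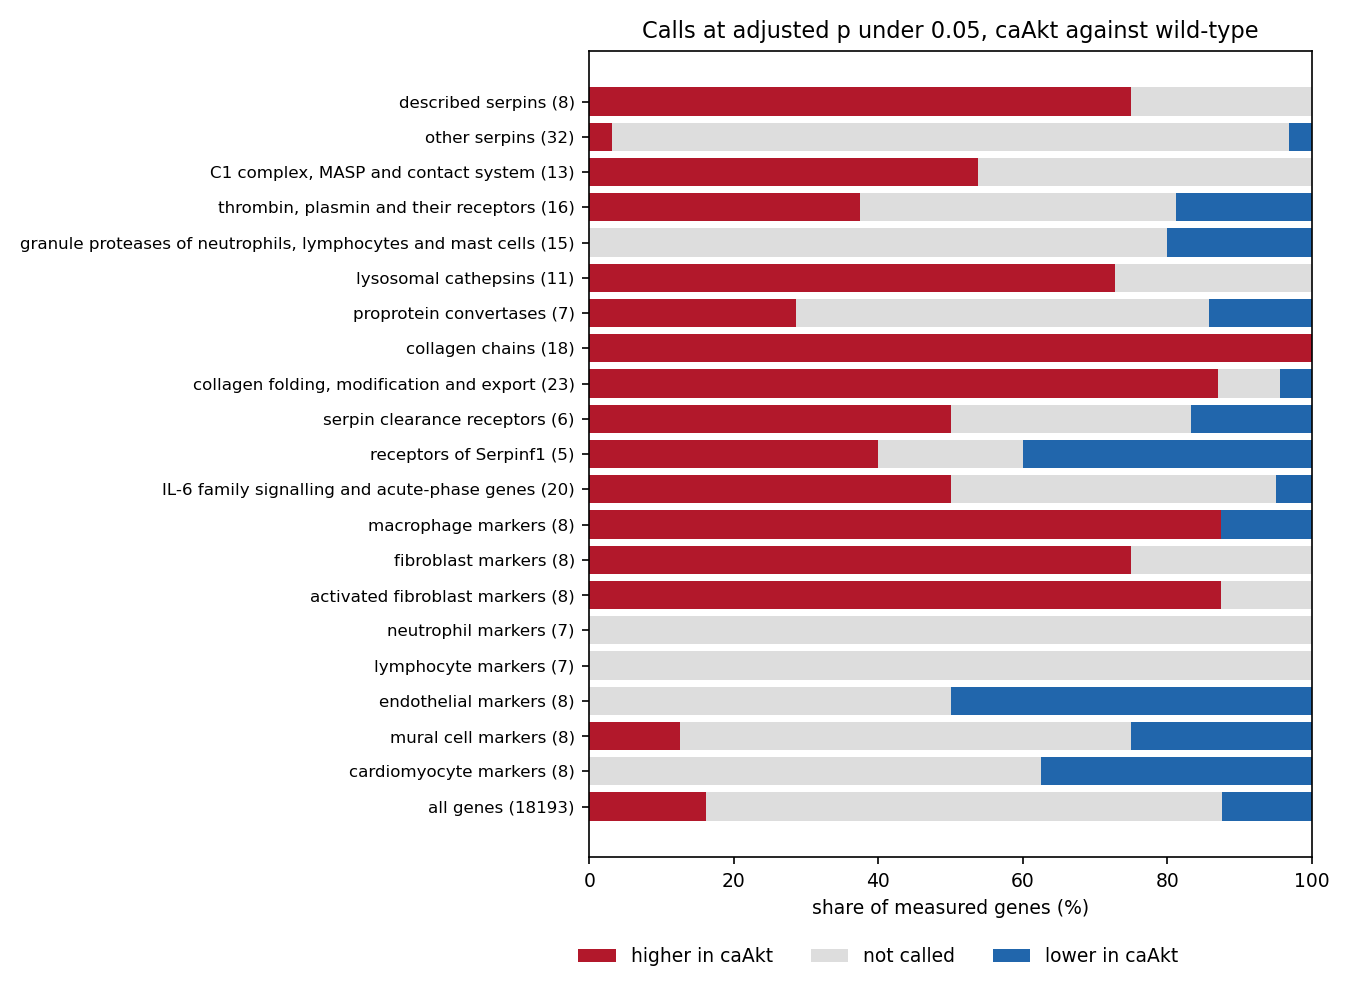
Share of measured genes (horizontal axis, percent) called higher, not called or called lower in caAkt against wild-type ventricles, for the described serpins, the other serpins, gene lists, cell type markers and all genes; the number of measured genes is in parentheses. All 18 listed collagen chains and 7 of 8 macrophage markers were higher. Of 7 neutrophil markers and 15 genes on the granule protease list, 0 were higher.

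Macrophage and fibroblast markers were higher beside the serpins. Of 8 macrophage markers 7 rose and 1 fell (Cd163, -0.49, chosen after its value was seen; 0 fell without caAkt replicate 1 or without wild-type replicate 1), with a median log2 fold change of 1.06. Their summed signal, on the log2 scale, was 13.06 to 13.37 in caAkt and 11.96 to 12.27 in wild-type arrays. The brightest were Csf1r (1.03 ± 0.13) and Mrc1 (0.99 ± 0.08). Of 8 fibroblast markers 6 rose and 0 fell, with a median of 0.62 and a summed signal of 15.19 to 15.44 in caAkt and 14.37 to 14.71 in wild-type arrays. Dcn rose by 0.74 ± 0.10 (0.40 with the mean of its probe sets) and Lum by 0.90 ± 0.14. Of 8 activated fibroblast markers 7 rose and 0 fell, with a median of 1.57 and a summed signal of 14.27 to 14.73 in caAkt and 13.22 to 13.42 in wild-type arrays. Postn rose by 2.31 ± 0.13, and Acta2 (0.03 ± 0.21) was not called, except without caAkt replicate 1 (0.33, adjusted p = 0.0456). The part of macrophages and fibroblasts in the rise of the serpins was not tested.

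Other cell types did not rise as lists. Of 7 neutrophil markers 0 rose and 0 fell (limma; 0 and 1 at an unadjusted p under 0.05; 1 fell without caAkt replicate 3), with a summed signal of 8.87 to 9.11 in caAkt and 9.02 to 9.75 in wild-type arrays. Of 7 lymphocyte markers 0 rose and 0 fell (1 and 0 at an unadjusted p under 0.05; 1 rose without caAkt replicate 3), with 9.44 to 9.61 in caAkt and 9.54 to 9.67 in wild-type arrays. Of 8 endothelial markers 4 fell and 0 rose (6 and 0 at an unadjusted p under 0.05; 2 fell without caAkt replicate 1 or without wild-type replicate 2), with a median of -0.26 and a summed signal of 12.88 to 13.00 in caAkt and 13.18 to 13.26 in wild-type arrays. Kdr, the main VEGF receptor, fell by 0.46 ± 0.08 on the log2 scale. Of 8 mural cell markers 1 rose (2 without wild-type replicate 1 or 3) and 2 fell, and of 8 cardiomyocyte markers 0 rose (0 also at an unadjusted p under 0.05) and 3 fell. Of 6 hepatocyte markers 1 rose (Ahsg) and 1 fell (Alb). Of 5 mesothelial markers 0 rose and 2 fell (Upk3b and Wt1), with 0 and 5 at an unadjusted p under 0.05. These calls changed when single arrays were left out, and under some settings with all arrays. Alb was lost whichever single array was left out, Ahsg without caAkt replicate 2 or 3 or wild-type replicate 1, and without single arrays 0 to 3 mesothelial markers fell. These genes were chosen after their values were seen. No marker lay at or under the highest Y-linked signal on all arrays, but that is a low bar. The hepatocyte marker Apoa1 averaged 6.96 in caAkt and 7.07 in wild-type arrays. The neutrophil markers, most lymphocyte markers and most genes on the granule protease list had lower means than that. Where such dim genes were not called, the values do not show that their cells were unchanged.

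The genes most like 3 of the serpins were sought by the Euclidean distance of centred log2 values over the 6 arrays. Nearest to Serpina3n were the potassium channel gene Kcnj14 (distance 0.30), the matrix gene Tnc (0.37) and Ltbp2 (0.47), with log2 fold changes of 3.40, 3.49 and 3.62. Nearest to Serpinb1a were Ppp1r3c (0.36), a glycogen-targeting phosphatase subunit, the secreted kinase gene Fam20c (0.37) and the metalloprotease gene Adam9 (0.38). Nearest to Serpinh1 were Ube2c (0.10), Ngef (0.13) and Cdca8 (0.16), of which Ube2c and Cdca8 act in mitosis. With 2 groups of 3 arrays, this distance is set mostly by the size of the fold change.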

How the data were processed

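The deposited log2 values are the authors' RMA output from the affy package, per the submitters' processing notes (versions not given in the sources used here). Because RMA equalises the distributions of arrays, a shift common to most genes is hidden. Of 45101 probe sets, 64 were controls, 34945 had 1 gene symbol in the platform annotation, 932 had several and 9160 had none there. The brightest probe set stood for each of 18193 genes. caAkt (3) and wild-type (3) arrays were set against each other in a two-sided limma test (version 3.58.1, run in R 4.3.3, lmFit with eBayes) with Benjamini-Hochberg adjustment over all genes, and calls have an adjusted p under 0.05. Other probe sets were tested in a fit of all probe sets. SEs of log2 fold changes are moderated, whereas those of the pairs come from the SDs of both groups without moderation. SDs are over the arrays of a group, and the number of arrays limits the precision. Pairs used exact permutation tests (scipy 1.17.1). The planned pair Serping1 with Serpine2 was not analysed.

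The members and lists were chosen with earlier results of these data known. The rule for named genes takes all members, at most 4 genes of each gene list (smallest p), the 2 brightest markers per cell type, the other serpins that were called and the 3 brightest that were not. The alternatives changed the genes' values (mean of probe sets, plain probe sets, every probe set tested by itself), the scaling (quantile normalization again, or centring on medians), the model (array weights, trended robust eBayes, a block for the replicate number), the filter (mean under 5 removed), the threshold (0.01) or the arrays (each left out in turn). The fit was tested on simulated data. Samples with the same replicate number had correlations of deviations of 0.27, 0.03 and -0.12, so the numbers were not taken to pair them.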

Additional observations from a re-analysis of the deposited data

How the results depend on the processing

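For the 6 called serpins, all 88 values under the alternatives kept their direction and call. Serpinh1 and Serpinb6a have no plain probe set, so that setting gave 4 called members. Direction could not change under trended robust eBayes, the replicate block or the filter, because these leave the log2 fold change as it was. Array weights did alter it (3.35 for Serpina3n). With every probe set tested by itself, the 88 take each gene's brightest probe set. The dimmer Serpinb1a probe set, which was not called (limma, adjusted p = 0.0585), is therefore not among them. The lowest value for Serpinb1a, 0.93, came from the mean of its probe sets. Serpinb6b (0.03 to 0.32) and Serpinb8 (-0.10 to 0.07) were not called under any alternative, and the sign of Serpinb8 varied. With the replicate block 6 members were higher and 0 lower, and 2903 genes were higher and 2238 lower. With every probe set tested by itself 5080 were higher and 3943 lower, and at a threshold of 0.01 1270 genes were lower. Leaving out single arrays gave 2369 to 2605 higher and 1615 to 2222 lower genes. Of the other serpins, 1 fell, against 0 with plain probe sets, 2 with repeated quantile normalization, 2 with the replicate block, 4 with array weights, and 1 to 3 without single arrays. Of 640 counts of gene lists, recomputed under alternatives added after the data were seen, 556 stayed within 1.5 times. Of 3515 values of genes outside the members under the alternatives, 3314 stayed on the same side. Among genes called in the main fit or in the alternative, 4 turned direction, all with plain probe sets. They were Anxa2 (-0.14), Pnpla2 (0.18), Lrp8 (0.24, adjusted p = 0.0383) and Il6ra (0.36, adjusted p = 0.0122), and the cause was not tested.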
